A study of Rattus norvegicus with 6 samples.

Results

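The genes examined were 44 that act at the G1/S transition and in DNA replication, the step at which a cell commits to copying its genome and the copying itself. They were taken from a list of gene symbols, with no value of these arrays in the rule, although the list was drawn up with earlier results of these data known. Each gene was read from the probe set, the array's unit of measurement, with the highest mean signal among those annotated to that gene alone. In all, 40 of the 44 genes had such a probe set. E2f2, Mcm3, Mcm4 and Pole2 were not matched and were not analysed here. The whole table held 29214 probe sets and 14506 genes named in this way.

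RNA was taken from RBL-2H3, a tumour line from rat basophils that serves as a model of mast cells, made to overexpress wild-type Dectin-1 stably, the receptor for fungal beta-glucans. The 6 arrays formed 3 groups of 2. Control cells were not stimulated, curdlan cells received the beta-glucan curdlan, and the third group received curdlan after pretreatment with R406, an inhibitor of the kinase Syk. All groups therefore carried the introduced receptor, and no array of R406 alone was analysed here. For doses, times and whether the line was 1 clone, the sources used here give nothing. Separate cultures behind the 2 arrays of each group are likewise not stated, so every p-value below rests on a spread that could be technical.

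In G1, D-type cyclins bind the kinases Cdk4 and Cdk6 and E-type cyclins bind Cdk2. These kinases phosphorylate the retinoblastoma proteins, which releases E2F transcription factors to switch on genes for DNA synthesis. Origins of replication are marked by the origin recognition complex, loaded with the MCM helicase by Cdc6 and Cdt1, and fired when Cdc45 and the GINS complex join the helicase. Mitogens act on this system chiefly through the D-type cyclins and the factor Myc.

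Many of these genes carry E2F-type sites near their start, and such stretches are shown to make that shared feature visible. The letters TTTCCCGC, TTTGGCGC, TTTGCCGC and TTTCGCGC were searched on both strands in windows of 300 bases, 250 before and 50 after 1 start per gene, from RefSeq on assembly GRCr8. Matches on opposite strands may overlap and were counted separately. Of the 40 measured genes 32 had a promoter in that table, and 16 of these 32 (50%) held a match, against 618 of 27457 promoters in all (2.25%). Each stretch shown has up to 9 bases on either side of the match, stops at the listed start and runs 5′ to 3′ along the gene, with the matched letters in capitals. The MCM and GINS genes stand for members that were not called, and Cdc25a and Slbp for members that were called.
Mcm2, chr4:122918095-122918117, minus strand: tgacccggtTTTCGCGCGAAAac
Mcm5 (distal), chr19:13488591-13488620, plus strand: gctcagaagTTTCGCGCCAAAacgtcccgc
Mcm5 (proximal), chr19:13488796-13488812, plus strand: aggttggttTTTCCCGC
Mcm6, chr13:42404471-42404500, minus strand: gcgtctgctTTTGGCGCGAAAttagcgtgt
Mcm7, chr12:22163214-22163239, minus strand: gtgacgacgTTTCGCGCcaatttcgg
Gins1, chr3:160184886-160184915, plus strand: ttaagcctaTTTGGCGCCAAAgagaggagc
Cdc25a, chr8:118742803-118742828, plus strand: tgagttccgTTTGGCGCcaactaggg
Slbp, chr14:81295998-81296018, plus strand: cattTTTCCCGCccttctgga
In Mcm2, Mcm5 (distal), Mcm6 and Gins1 a match on each strand overlapped in 1 run of letters. Mcm7 held another match, at -233 from its listed start, which is not shown as a stretch. The listed start lay 224 bases inside the outermost annotated start of Cdc25a, 111 inside that of Mcm2, 142 inside that of Mcm7 and 769 inside that of Slbp. Distances for these genes are therefore from an inner start. Several members not shown as stretches, among them Gins3, Ccnd3, Mcm10 and Uhrf1, also had an inner listed start. Their outermost starts lay outside the windows searched, so any match there was not counted. A match is a description of the sequence and does not show that a factor was bound.

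**Figure D1:**
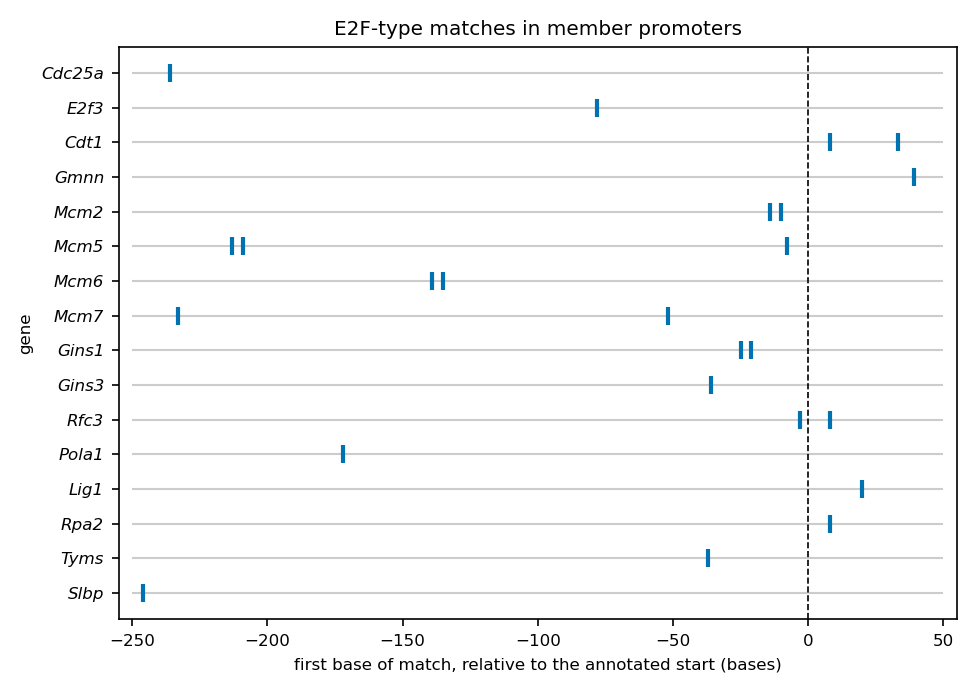
E2F-type matches (blue ticks, first base) in the 16 member promoters that held one, placed by distance in bases from the listed start (dashed line). Matches spanned nearly the whole window, from -246 in Slbp to 39 in Gmnn.

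Other motifs were not as unevenly spread. The CCAAT box, written CCAAT, was present in 21 of the 32 member promoters (65.6%) and in 37.7% of all promoters. The E-box bound by Myc and related factors, CACGTG, was present in 3 of 32 (9.38%) and in 6.65% of all. The cell cycle homology region TTTGAA, an element of genes expressed late in the cycle, was present in 4 of 32 (12.5%) and in 18.1% of all. These were searched on both strands, and none of their letters was required to lie outside an E2F match.

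Signals were log2 values normalized by the authors, with array medians between 7.204 and 7.241. Over probe sets, the correlation was 0.9975 to 0.9981 within groups and 0.9939 to 0.9967 between them. Of 10 mast cell markers, 9 lay above the 75th percentile of signal, with Tph1, the only one that changed in any comparison, at the 39.8th. No marker of macrophages and neutrophils (9 measured), lymphocytes (6) or fibroblasts and epithelia (9) lay above that percentile, and 0 of these 24 changed in any comparison. All 40 members had a mean signal above the median of all probe sets, from 7.72 for Slbp to 13.67 for Ccnd2, with a median of 11.23.

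The first comparison asked which of these genes differ when the receptor is stimulated. With curdlan, Ccne2, which encodes an E-type cyclin, rose by 0.43 ± 0.048 log2 units (SE), a 1.35-fold change, and Cdc25a, the phosphatase that activates Cdk2, rose by 0.32 ± 0.0429, or 1.25-fold (limma, Benjamini-Hochberg adjusted p = 0.0305 and 0.0435). None of the 40 genes fell by that test. Ccnd1, the mitogen-induced D-type cyclin, had the largest difference, 0.48 ± 0.0789, with an adjusted p = 0.0681. The other 37 members differed by -0.26 to 0.21.

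Thus 2 of 40 members (5.0%) passed, against 1.59% of all 29214 probe sets, 1.04% higher and 0.551% lower. Among probe sets above the median signal, where all members lie, 2.92% passed. The median difference of the members was -0.02, beside -0.01 over all probe sets, and 29 of 40 lay below 0 (72.5%, against 54.5% of all). Both calls were lost when any 1 of the 6 arrays was left out, at adjusted p from 0.108 to 0.181 for Ccne2 and from 0.150 to 0.203 for Cdc25a. With the residual variance allowed to follow the signal, 7 members passed, 5 higher and 2 lower, against 5.33% of all probe sets (3.14% higher and 2.19% lower). For that setting the share among probe sets above the median signal was not computed, here or in the other comparisons. The genes added were Ccnd1, Ccnd2 and Orc1, higher, and Cdt1 and Gmnn, lower. The standard error of a difference was 0.0427 to 0.0789 log2 units for the members, and 38 of 40 had a 95% interval wholly inside -0.5 to 0.5. In RNA from whole cultures, a changed share of cells in a cycle phase and a changed level per cell cannot be told apart.

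The second comparison asked how levels differ when cells receive R406 before curdlan. Under R406 plus curdlan, Ccnd1 fell by 1.11 ± 0.0789 relative to curdlan alone, a 2.16-fold difference, and Cdc25a fell by 0.54 ± 0.0429, or 1.46-fold (limma adjusted p = 0.00389 and 0.00529). Orc1 and Orc6, subunits of the origin recognition complex, fell by 0.38 ± 0.0501 and 0.25 ± 0.0458 (adjusted p = 0.0177 and 0.0401). Slbp, which encodes the protein that binds the stem-loop of histone mRNAs, rose by 0.39 ± 0.0513 (adjusted p = 0.0183). The remaining 35 members differed by -0.20 to 0.25 and did not pass.

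Here 5 of 40 members (12.5%) passed, 4 lower and 1 higher, against 7.25% of all probe sets, 3.23% lower and 4.02% higher. Among probe sets above the median signal 12.6% passed, nearly the members' own share. The members' median difference was 0.01, beside 0.00 over all probe sets. Ccnd1 passed without each of the 6 arrays in turn (adjusted p from 0.0167 to 0.0397). Cdc25a did not pass without either R406 plus curdlan array, at up to 0.0639. Orc1 and Slbp did not pass without either curdlan or either R406 plus curdlan array, at up to 0.122 and 0.124, and Orc6 did not pass when any 1 of the 6 was left out, at 0.0740 to 0.207. With variance following the signal 14 members passed, 5 higher and 9 lower, against 12.9% of all probe sets (7.69% higher and 5.20% lower). The share among probe sets above the median signal, where all members lie, was not computed for that setting. The genes added were E2f1, Tyms, Rpa2 and Gmnn, higher, and Ccnd2, Ccne1, Ccne2, Cdk6 and E2f3, lower.

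**Figure D2:**
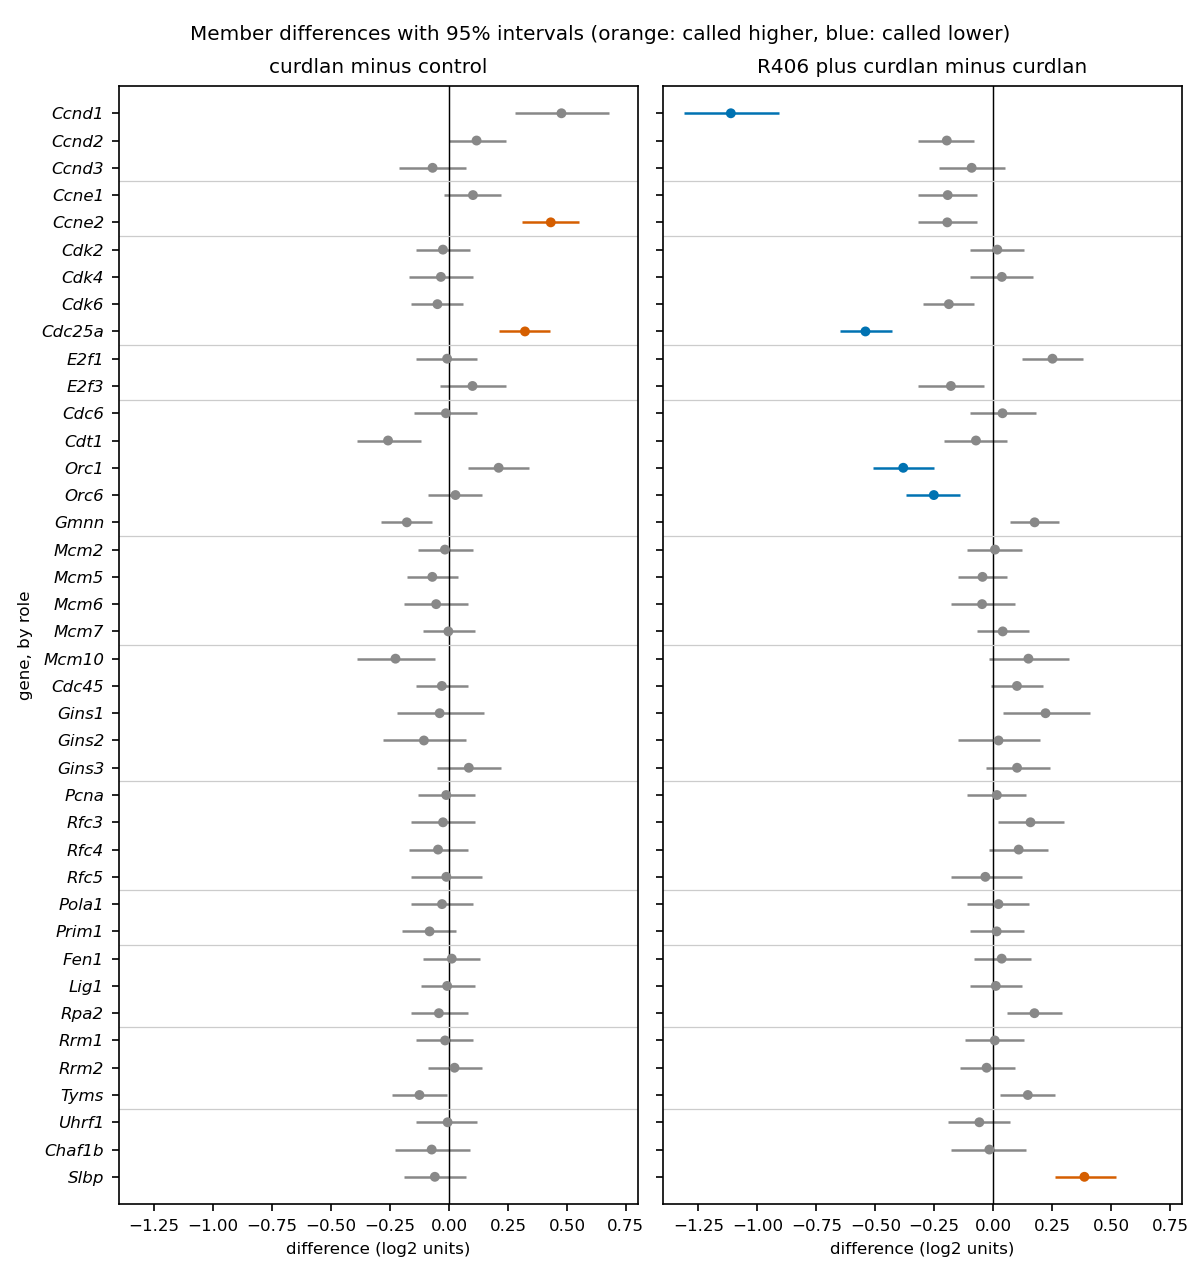
Difference in log2 signal for the 40 measured members, in order of role (grey lines divide roles), curdlan minus control on the left and R406 plus curdlan minus curdlan on the right. Points are differences of group means (2 arrays each) and lines their 95% intervals from the limma fit. Orange and blue mark genes called higher and lower, 2 on the left and 5 on the right.

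The third comparison set R406 plus curdlan against unstimulated control cells. Ccnd1 was below its control level, by -0.64 ± 0.0789 or 1.55-fold (limma adjusted p = 0.0311), and no other member passed. That call was lost when any 1 array was left out, at adjusted p from 0.0729 to 0.200. The next differences were Cdt1, which loads the MCM helicase, at -0.33 ± 0.0525 (adjusted p = 0.0525) and Slbp at 0.33 ± 0.0513 (adjusted p = 0.0524). So 1 of 40 members passed (2.5%), against 2.23% of all probe sets, 0.791% lower and 1.44% higher. Among probe sets above the median signal 3.85% passed. With variance following the signal 9 members passed, 3 higher and 6 lower, against 8.01% of all (5.05% higher and 2.96% lower), with no share above the median signal computed. The genes added were Ccne2, E2f1 and Slbp, higher, and Cdk6, Cdc25a, Mcm5, Cdt1 and Orc6, lower. When the fit was run on probe sets above the median signal alone, 6 members passed with curdlan, 14 under R406 against curdlan and 10 under R406 against control, beside 10.8%, 25.4% and 15.6% of those tested. This comparison shares its arrays with each of the others, so the 3 sets of values are not independent.

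Of the 3 D-type cyclins, Ccnd1 passed under R406 in both comparisons and Ccnd2 and Ccnd3 passed in none. Ccnd1 (probe set 10727260) had signals of 8.91 and 8.77 in control, 9.28 and 9.35 in curdlan, and 8.28 and 8.13 in R406 plus curdlan arrays. The groups did not overlap in any of the 3 comparisons, with curdlan highest and R406 plus curdlan lowest. Its counterpart Ccnd2, the other cyclin of this kind known for induction by growth factors, read 13.64 and 13.67, 13.80 and 13.75, and 13.56 and 13.59 in the same order. The order of groups was that of Ccnd1, but the differences were 0.12 ± 0.0466 with curdlan and -0.20 ± 0.0466 under R406 (adjusted p = 0.354 and 0.0790). Ccnd3 read 11.59 and 11.58 in control, 11.55 and 11.49 in curdlan, and 11.47 and 11.38 in R406 plus curdlan arrays. Its differences were -0.07 ± 0.0542 and -0.09 ± 0.0542 (adjusted p = 0.648 and 0.404), and its 95% interval under R406, -0.23 to 0.05, lay wholly above that of Ccnd1, -1.31 to -0.91. Whether the responses of these genes differ from each other was not tested.

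Both E-type cyclins were highest with curdlan. Ccne2 (probe set 10867614) read 11.06 and 11.03 in control, 11.48 and 11.46 in curdlan, and 11.25 and 11.31 in R406 plus curdlan arrays. The 3 groups did not overlap, and the R406 plus curdlan arrays lay between the others, at -0.20 ± 0.048 from curdlan (adjusted p = 0.0864) and 0.24 ± 0.048 from control (adjusted p = 0.0836). Ccne1 read 11.39 and 11.34, 11.47 and 11.46, and 11.30 and 11.25 in the same order. Its differences of 0.10 ± 0.0478 and -0.19 ± 0.0478 did not pass (adjusted p = 0.429 and 0.0876). In contrast to Ccne2, its R406 plus curdlan arrays lay below those of control, at -0.09 ± 0.0478 (adjusted p = 0.356).

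**Figure D3:**
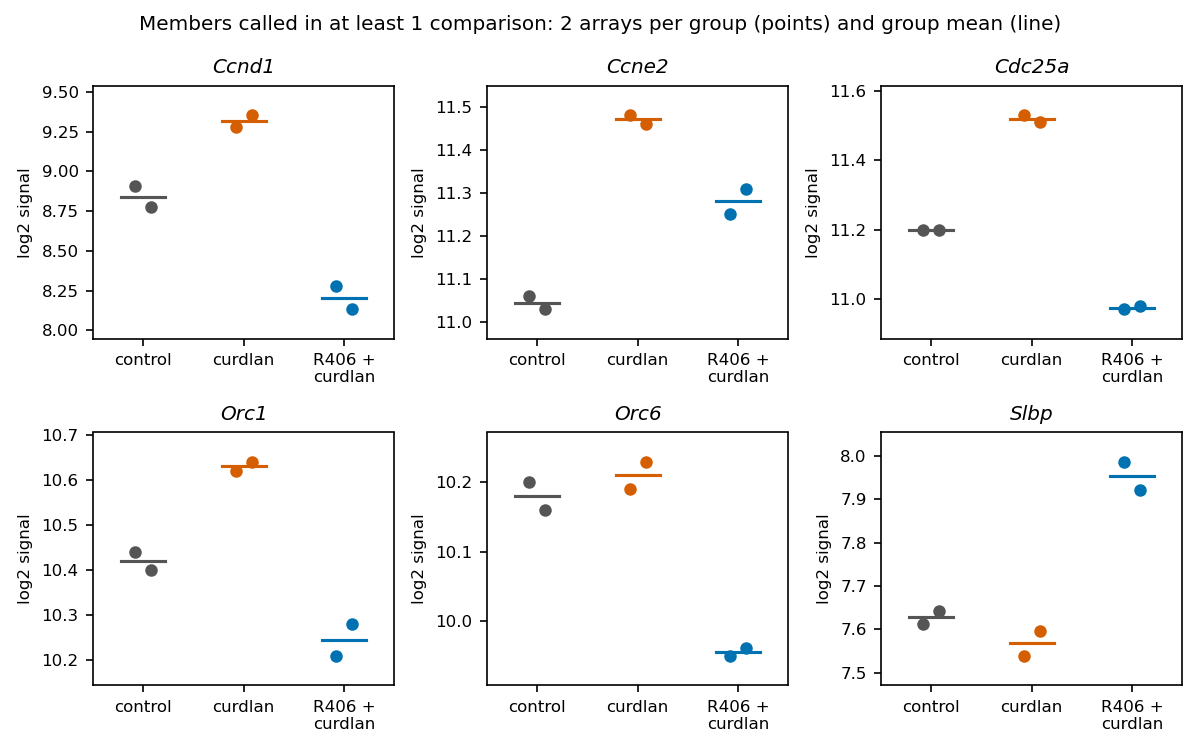
Log2 signal of the 6 members called in at least 1 comparison, with 2 arrays per group as points and the group mean as a line. Each panel has its own axis, which does not start at 0. Ccnd1, Cdc25a and Orc1 were highest with curdlan and lowest under R406 plus curdlan, and Slbp was highest under R406 plus curdlan.

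Of the 3 kinases that these cyclins bind none passed in any comparison, while their activator Cdc25a passed in the first and second. Cdc25a (probe set 10913553) read 11.20 in both control arrays, 11.53 and 11.51 in curdlan, and 10.97 and 10.98 in R406 plus curdlan arrays. Replicates nearly coincided and the groups did not overlap. The R406 plus curdlan arrays also lay below control, by -0.22 ± 0.0429 (adjusted p = 0.0776). Cdk2 read 11.11 and 11.12 in control, 11.11 and 11.07 in curdlan, and 11.12 and 11.09 in R406 plus curdlan arrays. Cdk4 read 13.58 and 13.50, 13.54 and 13.48, and 13.55 and 13.54. Both overlapped between control and curdlan, with 95% intervals of -0.14 to 0.09 and -0.17 to 0.10 for that difference. Cdk6 read 11.57 and 11.56 in control, 11.52 and 11.51 in curdlan, and 11.34 and 11.32 in R406 plus curdlan arrays. It was lowest under R406 plus curdlan, at -0.19 ± 0.0429 from curdlan and -0.24 ± 0.0429 from control (adjusted p = 0.0719 and 0.0674).

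Neither E2F gene among the measured members passed in any comparison. E2f5 and E2f7, which lie outside the members and did pass, are given further below. E2f1, an activator of the genes for DNA synthesis, read 10.37 and 10.29 in control, 10.34 and 10.30 in curdlan, and 10.59 and 10.56 in R406 plus curdlan arrays. Control and curdlan overlapped, and the R406 plus curdlan arrays stood above both, at 0.25 ± 0.0509 from curdlan (adjusted p = 0.0535, and 0.0479 with arrays centred on their median). E2f3 read 10.67 and 10.56, 10.72 and 10.71, and 10.56 and 10.51. It was lower under R406 plus curdlan than with curdlan, at -0.18 ± 0.0555, without passing (adjusted p = 0.143).

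Among the genes that license origins, Orc1 and Orc6 passed and the others did not. Orc1 (probe set 10870791), the largest subunit of the complex, read 10.44 and 10.40 in control, 10.62 and 10.64 in curdlan, and 10.21 and 10.28 in R406 plus curdlan arrays. Its groups did not overlap, and its difference with curdlan was 0.21 ± 0.0501 (adjusted p = 0.149). Orc6 (probe set 10809856) read 10.20 and 10.16, 10.19 and 10.23, and 9.95 and 9.96. Control and curdlan overlapped, and only the R406 plus curdlan arrays stood apart. Cdt1 read 10.93 and 10.84 in control, 10.64 and 10.61 in curdlan, and 10.53 and 10.57 in R406 plus curdlan arrays, so that it was lower than control in both stimulated groups. With curdlan its difference was -0.26 ± 0.0525 (adjusted p = 0.106). Its inhibitor geminin, the product of Gmnn, read 12.04 and 12.03 in control and 11.85 and 11.86 in curdlan arrays, a difference of -0.18 ± 0.043 (adjusted p = 0.151). The R406 plus curdlan mean of Gmnn was 12.03, as in control. Cdc6, which acts with Cdt1, had group means of 11.06, 11.05 and 11.09.

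Mcm2, Mcm5, Mcm6 and Mcm7, subunits of the MCM helicase, differed by -0.07 to 0.00 with curdlan, by -0.05 to 0.04 under R406 against curdlan and by -0.12 to 0.04 under R406 against control, and 0 of 4 passed with all probe sets sharing 1 prior variance. Mcm5 passed in the third comparison with variance following the signal, at -0.12 ± 0.0427 (limma adjusted p = 0.223, and 0.0395 under that setting). Mcm2 had group means of 12.56, 12.55 and 12.55, with a 95% interval of -0.13 to 0.10 for the difference with curdlan and -0.11 to 0.12 under R406. Of the 5 genes that turn the loaded helicase into an active one, 0 passed. Mcm10, which is needed for that step, read 10.98 and 10.89 in control, 10.64 and 10.78 in curdlan, and 10.88 and 10.84 in R406 plus curdlan arrays, a difference of -0.23 ± 0.066 with curdlan (adjusted p = 0.216). Gins1, a subunit of the GINS complex, had means of 9.82, 9.78 and 10.00, and a difference of 0.22 ± 0.0727 under R406 (adjusted p = 0.163). Cdc45, Gins2 and Gins3 differed by 0.10, 0.02 and 0.10 from curdlan under R406.

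None of the genes of the machinery that copies DNA passed in any comparison. Pcna, the sliding clamp of the polymerases, had means of 12.54, 12.53 and 12.55, and 95% intervals of -0.13 to 0.11 with curdlan and -0.11 to 0.14 under R406. The clamp loader genes Rfc3, Rfc4 and Rfc5 differed from curdlan by 0.16, 0.11 and -0.03 under R406. Pola1 and Prim1, for the catalytic subunits of the polymerase and primase that start each strand, differed by -0.03 and -0.08 with curdlan and by 0.02 and 0.01 under R406. Fen1 and Lig1, which process and seal the lagging strand, differed by 0.01 and -0.01 with curdlan. Rpa2, a subunit of the single-strand binding protein, read 11.27 and 11.26 in curdlan and 11.44 in both R406 plus curdlan arrays, a difference of 0.17 ± 0.0465 (adjusted p = 0.104, and 0.0123 with variance following the signal).

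Of the members that serve nucleotide supply and new chromatin, Slbp alone passed, in the second comparison. Rrm1 and Rrm2, the subunits of ribonucleotide reductase, differed by -0.02 and 0.02 with curdlan and by 0.01 and -0.03 under R406. A second probe set of Rrm2 gave 0.01 and -0.02, and one of Rrm1, with a mean signal of 6.42 against 12.98 for the one used, gave -0.03 and 0.02. Tyms, thymidylate synthase, read 11.70 and 11.74 in control, 11.60 and 11.59 in curdlan, and 11.73 and 11.75 in R406 plus curdlan arrays. Curdlan was its lowest group, at -0.13 ± 0.0454 from control (adjusted p = 0.310), and R406 plus curdlan lay at 0.15 ± 0.0454 from it (adjusted p = 0.144, and 0.0177 with variance following the signal). Uhrf1, which helps maintain DNA methylation, and Chaf1b, a histone chaperone subunit, differed by -0.01 and -0.07 with curdlan and by -0.06 and -0.02 under R406. Slbp (probe set 10858597) read 7.61 and 7.64 in control, 7.54 and 7.60 in curdlan, and 7.99 and 7.92 in R406 plus curdlan arrays. Only its R406 plus curdlan arrays stood apart, above both other groups.

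**Figure D4:**
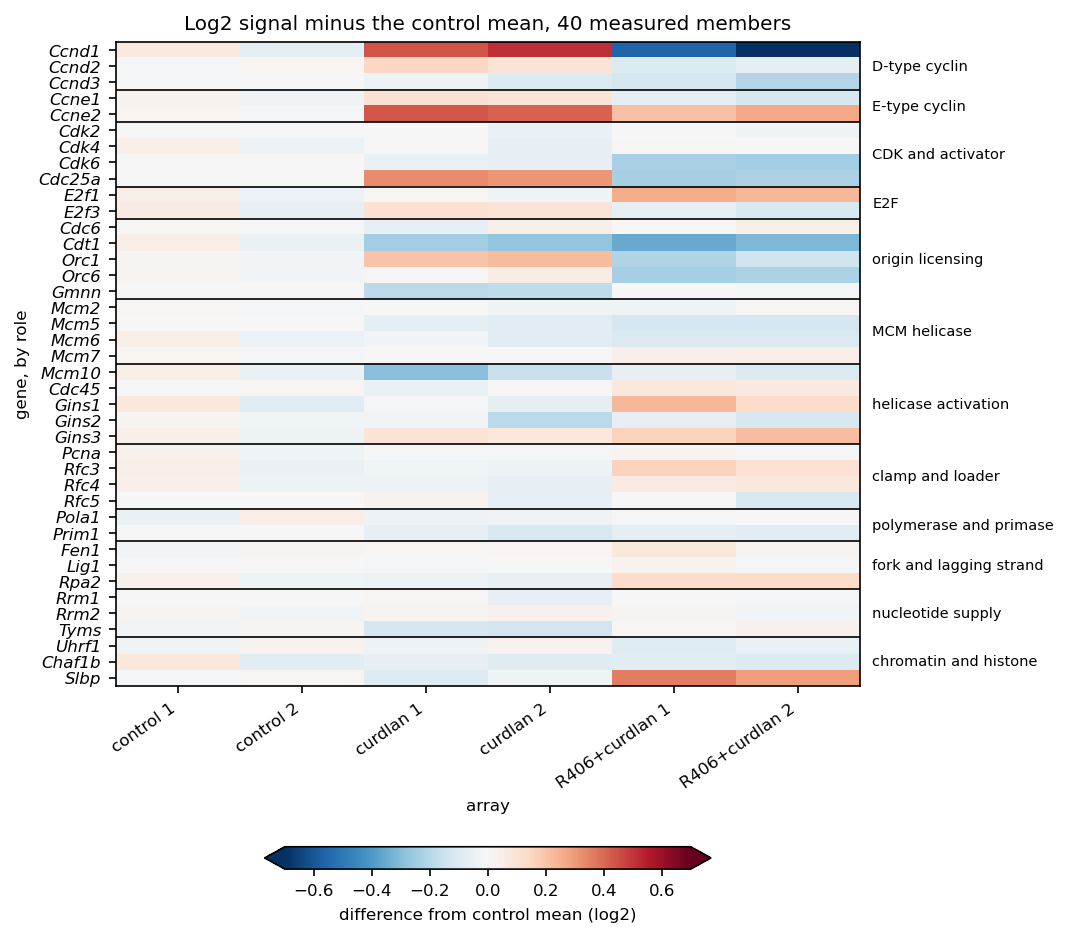
Log2 signal of each measured member minus its control mean, by array (columns) and gene (rows, grouped by role). The colour scale ends at -0.7 and 0.7. Ccnd1, Ccne2 and Cdc25a were the 3 genes most raised in curdlan arrays, and most rows from Mcm2 to Chaf1b were pale in all 6 arrays.

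Without a test, 19 of 40 members had control and curdlan arrays that did not overlap, 8 higher (20.0%, against 19.2% of all probe sets) and 11 lower (27.5%, against 23.9%). Between curdlan and R406 plus curdlan 30 did not overlap, 15 in each direction (37.5%, against 27.7% of all higher and 25.6% lower). Between control and R406 plus curdlan 28 did not overlap, 11 higher (27.5%, against 25.7%) and 17 lower (42.5%, against 27.8%).

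The differences of members with and without an E2F-type match are given as a description of these 32 genes, with no test. With curdlan the median difference was -0.03 in the 16 genes with a match and -0.03 in the 16 without, with 13 of 16 below 0 in each. Under R406 against curdlan the medians were 0.03 and 0.01, with a range of -0.54 to 0.39 in genes with a match and -0.25 to 0.15 in those without. Under R406 against control they were -0.0003 and -0.0548, with 8 and 11 of 16 below 0. Of the 3 called genes with a promoter in the table, Cdc25a and Slbp held a match and Orc6 did not, and those with a match were called in opposite directions under R406. The other called genes, Ccnd1, Ccne2 and Orc1, had no promoter in that table and are not among these 32.

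Beyond these 40, 72 other genes of the G1/S and replication pathway were listed and 57 were measured. With curdlan 2 of the 57 rose and 0 fell (3.51%, against 1.59% of all probe sets and 2.92% of those above the median signal). These were E2f5, a repressive E2F, by 0.49 ± 0.0628 and Skp2, the ubiquitin ligase subunit that removes the inhibitor p27, by 0.44 ± 0.0609 (limma adjusted p = 0.0412 and 0.0467). Both calls were lost when any 1 of the 6 arrays was left out, at up to 0.208. The median of the 57 was -0.04, beside -0.01 over all probe sets.

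Under R406 7 of the 57 rose and 2 fell, (12.3% and 3.51%, against 4.02% and 3.23% of all probe sets, and 15.8% either way against 12.6% of those above the median signal). Their median difference was 0.10, beside 0.00 over all probe sets. The CDK inhibitor genes Cdkn1b (p27), Cdkn2c and Cdkn2b rose by 0.60 ± 0.0508, 0.46 ± 0.0521 and 0.40 ± 0.0461. Of the other measured CDK inhibitor genes, Cdkn1a (p21) fell by 0.74 ± 0.0697. Cdkn2a and Cdkn1c, named after their values were seen, differed by -0.17 and -0.07 (adjusted p = 0.249 and 0.533). The retinoblastoma relative Rbl2 rose by 0.49 ± 0.0497, and Rb1 itself, also named after its value was seen, differed by 0.19 ± 0.0541 (adjusted p = 0.119). Tfdp2, a partner of E2F proteins, rose by 0.65 ± 0.0493 and Cdc25b, a relative of Cdc25a that acts later in the cycle, by 0.52 ± 0.0445. Rrm2b, a gene of nucleotide supply also named after its value was seen, rose by 0.38 ± 0.0747 (limma adjusted p = 0.0498). It did not pass with arrays centred on their median. Myc fell by 3.93 ± 0.0807. The limma adjusted p of the other 8 named genes that passed lay between 0.000112 and 0.0123. Of them Myc alone passed without each of the 6 arrays. Cdkn1b, Tfdp2 and Cdc25b were lost without either R406 plus curdlan array, Cdkn2c, Cdkn2b and Rbl2 also without either curdlan array, and Cdkn1a without curdlan replicate 1 or either R406 plus curdlan array, at adjusted p up to 0.103.

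Against control, 4 of the 57 were higher under R406 plus curdlan and 1 was lower (7.02% and 1.75%, against 1.44% and 0.791% of all probe sets, and 8.77% either way against 3.85% of those above the median signal). Cdc25b rose by 0.54 ± 0.0445, Cdkn2c and Tfdp2 both by 0.48, and E2f7, a repressive E2F, by 0.46 ± 0.0533, while Myc fell by 3.38 ± 0.0807 (limma adjusted p from 0.000583 to 0.0274). Cdkn2c, Tfdp2 and E2f7 did not pass when any 1 array was left out, at up to 0.209, and Cdc25b did not pass without either control or either R406 plus curdlan array, at up to 0.150.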

How the data were processed

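The deposited table holds log2 signals, 1 for every probe set on each array. The submitters' processing notes name Affymetrix Expression Console as the authors' tool. For its version, summarisation, normalization method and genome build, the sources used here give nothing. The log2 scale was inferred from the values. Array medians were nearly equal, which can come from scaling arrays alike, but the step used is not stated. Scaling of that kind would remove a change shared by most transcripts. The small number of arrays limits precision. Of 29214 probe sets 15310 had 1 gene symbol, 323 several and 13581 none.

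The model (lmFit, then eBayes, in limma 3.58.1 under R 4.3.3) took the 3 groups and all 6 arrays together, with no filter. It had 3 residual and 2.16 prior degrees of freedom. Calls needed an adjusted p (Benjamini-Hochberg, 29214 probe sets) below 0.05. Tested on simulated data for the curdlan comparison, the fit recovered 39 of 100 probe sets changed by 0.5 and 71 of 100 changed by 1 log2 unit, with 5 false among 115 calls. Only these probe sets were changed, drawn at random from all 29214 at any signal, and both curdlan-treated groups were shifted alike. Recovery for the members, all above the median signal, was not measured.

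The members and lists were chosen with earlier results of these data known. Members called in any comparison, cyclins, kinases, Cdc25a and E2F genes were given by array, with up to 6 other pathway genes per comparison and direction.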

Additional observations from a re-analysis of the deposited data

How the results depend on the processing

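Of the 40 members and the other pathway genes called with all arrays, none reversed direction with a call under any alternative run. Cdkn2a, Cdkn1c and Rb1 were not followed through these runs. Leaving out 1 array at a time leaves 2 residual degrees of freedom, and a lone array is assumed to vary like the other groups. The number of members called then ranged from 0 to 0 with curdlan, 1 to 4 under R406 against curdlan and 0 to 0 under R406 against control (2, 5 and 1 with all arrays), and the number of other pathway genes from 0 to 0, 1 to 8 and 1 to 2 (2, 9 and 5). With the replicate number as a block, in the same order, 0, 3 and 0 members and 0, 8 and 1 other genes were called, with 0.349%, 3.86% and 0.212% of all probe sets. Deviations of same-numbered arrays correlated at -0.115, -0.005 and 0.113. Such values cannot show whether same-numbered arrays were handled together, and the labels do not state it. In the 4 arrays of the 2 groups compared, 0, 4 and 0 members and 0, 8 and 2 other genes passed. At an adjusted p under 0.01 these were 0, 2 and 0 members and 0, 6 and 1 other genes. Among probe sets above the median signal, where fewer are tested, they were 6, 14 and 10 members and 8, 24 and 16 other genes. With variance following the signal they were 7, 14 and 9 members and 9, 24 and 19 other genes. After quantile normalization 3, 5 and 2 members and 3, 10 and 5 other genes passed. Ccnd1 was then added with curdlan and Cdt1 under R406 against control. With arrays centred on their median 2, 5 and 2 members and 1, 9 and 6 other genes passed. Under R406 against curdlan, centring lost Orc6 and Rrm2b and added E2f1, so that 2 members were higher and 3 lower. Skp2 was lost with curdlan, and Slbp was added under R406 against control. Averaging the probe sets of a gene gave 2, 5 and 1 members. For the runs that left out arrays, the stricter threshold, the normalizations and the averaging, no share of all probe sets is given. Those counts therefore cannot be set against the rate of calls over the whole array. Why the counts moved under the replicate block, the normalizations and the variance trend was not tested. The median difference of members under R406 against control was -0.01 and turned to 0.02 with arrays centred, and that under R406 against curdlan was 0.01 and turned to -0.01 without curdlan replicate 2.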
